A study of Ovis aries with 16 samples.

Results

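The effect of prenatal bisphenol A (BPA) on the adult heart was compared in female sheep that were kept on a control diet after birth. The comparison used 8 of the 16 libraries of the series, the 4 labelled BPA against the 4 labelled control, each from the myocardium of 1 animal. Dams of the BPA group had received daily subcutaneous BPA in corn oil, 0.5 mg/kg per day, from day 30 to day 90 of gestation, and dams of the control group had received corn oil alone. Both groups were fed the control diet from 14 weeks of age, and hearts were taken at 21 months, in the presumed follicular phase after prostaglandin injections that all animals had received. The other groups of the series, obese (vehicle and overfeeding) and ObBPA (prenatal BPA and overfeeding), had 4 animals each and are used here only to show the same features in other animals. The labels do not say whether animals of a group shared a dam or sire. Of the 27054 features in the table, 12689 reached an FPKM of 1 in 4 or more of these 8 and were tested. FPKM is a fragment count scaled to transcript length and to the mapped fragments of the library.

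BPA binds oestrogen receptors weakly and also acts on other nuclear receptors. Exposure before birth falls in the time when heart muscle cells still divide and the organ takes its final cell number, which is why lasting changes in the adult myocardium have been looked for. Adult myocardium consists by volume mostly of cardiomyocytes, with fibroblasts, endothelial cells, smooth muscle cells and leukocytes between them. In such bulk tissue, fewer cells of a type and less RNA per cell cannot be told apart. The table carried Ensembl sheep gene identifiers without names, and 0 of the 27054 identifiers matched the gene table at hand. Features are therefore given by identifier, without known function, and the tissue label could not be checked against heart markers.

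No feature of the control-fed hearts differed between BPA and control past the false discovery rate limit of 0.05 in limma (0 of 12689 tested features, 0%). At an unadjusted p under 0.05 there were 184 features, or 1.45%, where evenly distributed p-values would give 5%. Of these, 94 (0.741%) were higher and 90 (0.709%) lower in BPA hearts. The differences of these 184 features were mostly small. Among those above 0 in all 8 libraries, the 83 higher ones had a median log2 difference of 0.41 and the 79 lower ones a median size of 0.48, and 4 in each direction exceeded a size of 1. Log2 differences here are of FPKM + 1, so changes at low levels look smaller than they are in FPKM. BPA and control libraries did not overlap for 152 features (1.2%), 98 of them higher in BPA (0.772%) and 54 lower (0.426%).

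For single hearts, the pair of features of smallest p in either direction is shown, taken from features whose mean FPKM was 10 or more. ENSOARG00000022451 had FPKM values of 133, 85.8, 103 and 116 in control libraries 0 to 3 and of 248, 188, 178 and 224 in BPA libraries 0 to 3. Every BPA heart lay above every control heart. The means were 109 ± 20.1 for control and 209 ± 32.8 for BPA (SD, n = 4), a ratio of 1.92. Its log2 difference was 0.94 ± 0.179 (SE), with a 95% interval of 0.53 to 1.34 and an adjusted p of 1.00 by limma (range over alternatives 0.181 to 1.00). It ranked 4 of all tested features by p.

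ENSOARG00000020608 had 79.9, 65.1, 93.1 and 69.1 FPKM in control libraries 0 to 3, and 112, 128, 150 and 155 in BPA libraries 0 to 3. Again no control heart reached the lowest BPA heart, which was library 0. The means were 76.8 ± 12.6 for control and 136 ± 19.7 for BPA (SD, n = 4), a ratio of 1.77. The log2 difference was 0.82 ± 0.165 (SE), with a 95% interval of 0.44 to 1.19 and an adjusted p of 1.00 by limma (range over alternatives 0.181 to 1.00).

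ENSOARG00000012987 stood at 64.8, 78.1, 63.8 and 59.2 FPKM in control and at 40.2, 38.9, 43.1 and 54.2 in BPA libraries 0 to 3. All BPA hearts lay below all control hearts, with BPA library 3 closest to them. The means were 66.5 ± 8.11 for control and 44.1 ± 6.96 for BPA (SD, n = 4), a ratio of 0.664. Its log2 difference was -0.59 ± 0.150 (SE), with a 95% interval of -0.92 to -0.25 and an adjusted p of 1.00 by limma (range over alternatives 0.306 to 1.00). The other lower feature, ENSOARG00000023370, behaved differently: it had 72.4, 68.5, 36.3 and 92.7 in the control libraries, was listed at 0 in BPA libraries 0, 1 and 2, and had 14.9 in BPA library 3. A 0 in an FPKM table may mean that no read was seen or that the estimate failed. Its fitted log2 difference of -5.02 ± 0.854 (SE) depends on the added 1 and had an adjusted p of 1.00 by limma. Without BPA library 3 the adjusted p was 0.000317 (range over alternatives 0.000317 to 1.00).

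**Figure D1:**
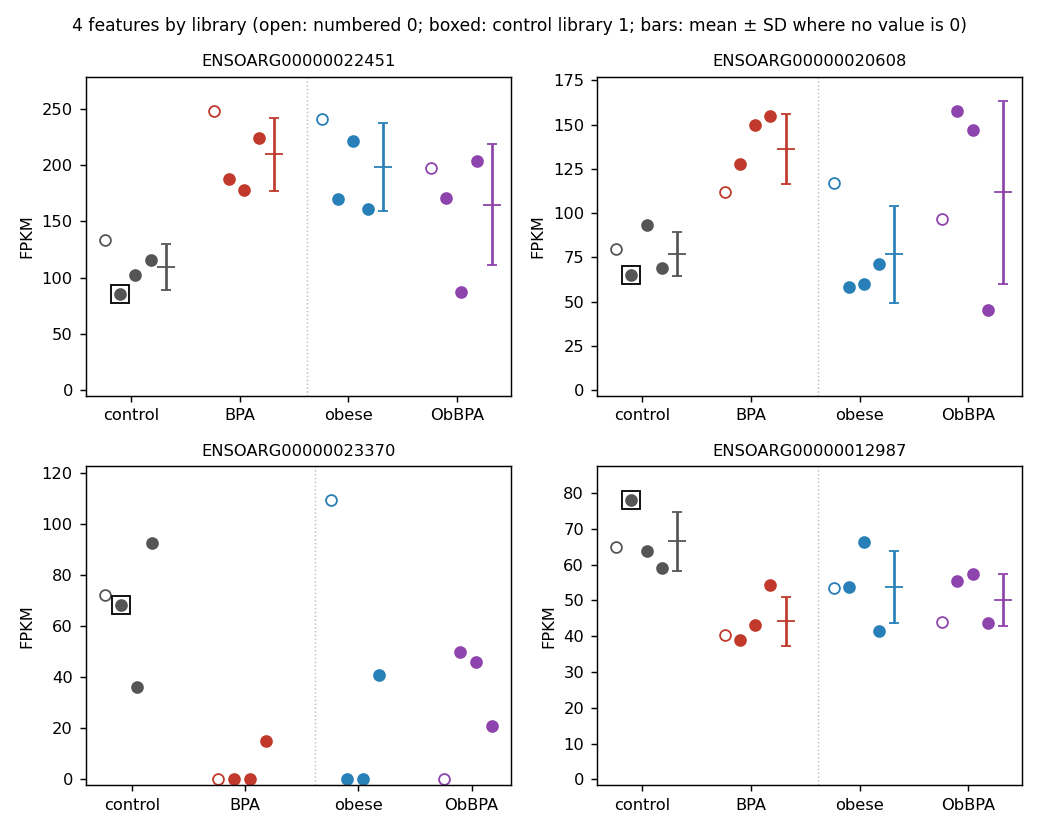
FPKM of the 4 named features in each library of the 4 groups (linear axes from 0), with open points for the libraries numbered 0, a box around control library 1, and mean ± SD where no library is at 0. In the control-diet groups at the left the points do not overlap, for example 85.8 to 133 against 178 to 248 for ENSOARG00000022451, while the obese and ObBPA points at the right overlap for all 4 features.

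These 4 features were picked for their small p, so the lack of overlap is no further evidence of a difference. Overfed animals offered the same measure in hearts that the choice had not used. There, ENSOARG00000022451 had 241, 170, 222 and 161 in obese and 198, 171, 87.1 and 204 in ObBPA libraries 0 to 3, a log2 difference of -0.32 ± 0.277 (SE). The obese hearts, which had no BPA exposure, thus lay at the level of the BPA hearts and above all control hearts. ENSOARG00000020608 had 117, 58.2, 59.8 and 71.3 in obese and 96.9, 158, 147 and 45.2 in ObBPA libraries, a difference of 0.45 ± 0.403 (SE). ENSOARG00000012987 had 53.3, 53.8, 66.3 and 41.4 in obese and 44.1, 55.5, 57.3 and 43.6 in ObBPA libraries, a difference of -0.09 ± 0.156 (SE). ENSOARG00000023370 was at 0 in obese libraries 1 and 2 and in ObBPA library 0, with 110 and 41.0 in the other obese and 49.9, 45.9 and 21.0 in the other ObBPA libraries. In none of these did the overfed groups separate, and the adjusted p was 1.00 by limma for each. The overfed difference minus the control-diet difference was largest in size for ENSOARG00000022451 among the 3 features never listed at 0. It was -1.26 ± 0.342 (SE) on the log2 scale, with an adjusted p of 0.9985 by limma on all 16 libraries. This contrast contains the control-diet difference of 0.94 for which the feature was picked, so it is not a measure from other hearts alone.

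Across all features, the direction of the control-diet difference did not carry over to overfed hearts more often for the features of small p than for the rest. These comparisons share no animals. In overfed hearts, 12734 features were tested, of which 2 (0.0157%) were called by limma, 443 (3.48%) had an unadjusted p under 0.05, and 256 (2.01%) did not overlap between the groups. The overfed calls numbered 0 with all 16 libraries fitted, with the library number as a block and among features above 0 in all 8 libraries, and 1 to 7 over single libraries left out, and the 443 became 233 with all 16 fitted and 791 with the block. Of 175 features with an unadjusted p under 0.05 that were tested in both diets, 77 had the same direction in ObBPA against obese, or 44.0%, beside 44.6% of all 12516 features tested in both. By direction, 41 of 90 higher and 36 of 85 lower features kept it. An unadjusted p under 0.05 in overfed hearts was reached by 6 of the 175 in the same direction and by 7 in the opposite one, and 3.43% of all features tested in both diets reached it. Of 149 features whose control-diet groups did not overlap, 4 separated in overfed hearts in the same direction and 1 in the opposite one. Among all features tested in overfed hearts, 2.01% separated, counting either direction.

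The largest differences between BPA and control hearts came from features that were switched between 0 and a high value from one library to the next. In all, 231 features (1.82% of those tested) were listed at 0 in at least 1 of the 8 libraries and had an FPKM of at least 10 in another. They made up 132 of the 167 features whose log2 difference exceeded a size of 1, and 65 of the 66 whose difference exceeded a size of 2. They went both ways, with 121 higher and 110 lower in BPA hearts. An unadjusted p under 0.05 by limma was reached by 14 of the 231 (6.06%), beside 1.45% of all tested features. Over all tested features, just 1, which was not among the 231, stood at 0 in every control library and above 0 in every BPA library. The reverse was shown by 0 features. The filter admits such a feature only if all 4 libraries of the other group reach an FPKM of 1, which limits these counts. The class of switching features was defined after the values were seen, and no test was made of it as a class.

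**Figure D2:**
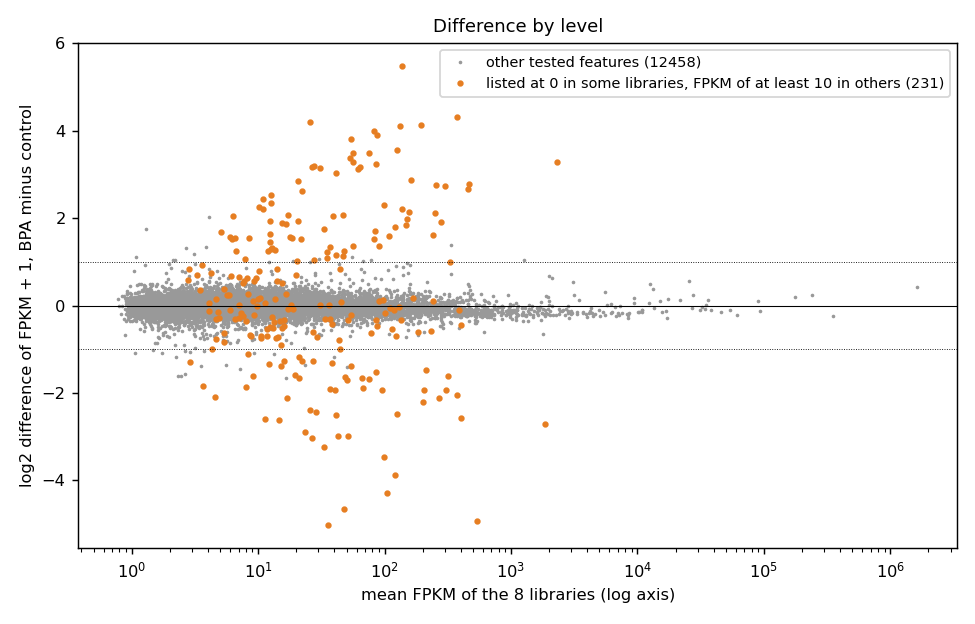
Log2 difference (BPA minus control, FPKM + 1) against the mean FPKM of the 8 libraries (log axis) for the 12689 tested features, with the 231 features listed at 0 in some libraries and at 10 or more in others in orange. Beyond the dotted lines at a difference of 1 in either direction, 132 of 167 features belong to these 231.

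The size of these switches could be read in units of the table itself. Where fragments are counted whole, the values of a feature are whole multiples of what 1 fragment is worth, and the ratio of such steps between libraries gives their relative depth. For the 6 control and BPA libraries numbered 1 to 3, the depth, with control library 3 set to 1, was 0.539 in control library 1, 0.901 in control library 2, 0.80 in BPA library 1, 0.651 in BPA library 2 and 1.75 in BPA library 3. The libraries numbered 0 shared no such step with them, and absolute depth is unknown. After division by these depths, 212 of the 231 switching features (91.8%) had values in all libraries numbered 1 to 3 of the 4 groups that were whole multiples, from 0 to 10, of 1 step, within 2%. For 164 of the 212, no control or BPA library numbered 1 to 3 exceeded 4 steps. A single step was worth a median of 17.1 FPKM at the depth of control library 3. A step is the value of 1 fragment, or of a number of fragments common to all libraries, so a filter at an FPKM of 1 does not remove such features.

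In all, 6 features were called when libraries were left out, and 5 of them were listed at 0 in part of the control and BPA libraries. They are named because they were called, and were chosen after their values were seen. When the libraries numbered 0 were left out of both groups, ENSOARG00000021263 was the only call, lower in BPA hearts, with an adjusted p of 0.00129 by limma (0.0328 when control library 1 was left out as well, and a range over alternatives of 0.00129 to 1.00). In steps, it had 1, 1 and 2 in control libraries 1 to 3 and 0 in BPA libraries 1 to 3. The libraries left out went the other way, listed at 0 in control library 0 and at 40.8 FPKM in BPA library 0. In overfed hearts it had 1, 1 and 0 steps in obese libraries 1 to 3 and 1, 0 and 3 in ObBPA libraries 1 to 3.

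Without control library 2, ENSOARG00000024827 and ENSOARG00000021353 were called as higher in BPA hearts, with adjusted p of 0.000672 and 0.000373 by limma. ENSOARG00000024827 had 2, 1 and 4 steps in BPA libraries 1 to 3, and the left-out control library 2 was the only one of control libraries 1 to 3 above 0, with 1 step. ENSOARG00000021353 had 1, 2 and 2 steps in the BPA libraries and 2 in control library 2. Without BPA library 3, the deepest of the 6, ENSOARG00000023370, ENSOARG00000023119 and ENSOARG00000019043 were called, with adjusted p of 0.000317, 0.00515 and 0.00857 by limma. ENSOARG00000023119 had 2, 1 and 1 steps in control libraries 1 to 3, 0 in BPA libraries 1 and 2, and 2 in BPA library 3. ENSOARG00000019043 was not listed at 0 in either group: it had 0.443 to 0.882 FPKM in the control libraries, 6.20, 10.9 and 11.6 in BPA libraries 0 to 2 and 1.13 in BPA library 3. All BPA values were above all control values. It also varied widely in overfed hearts, from 0.461 to 9.43 in the obese and from 0 to 30.6 in the ObBPA libraries. The highest adjusted p of each of these features over the alternatives was 1.00 by limma.

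**Figure D3:**
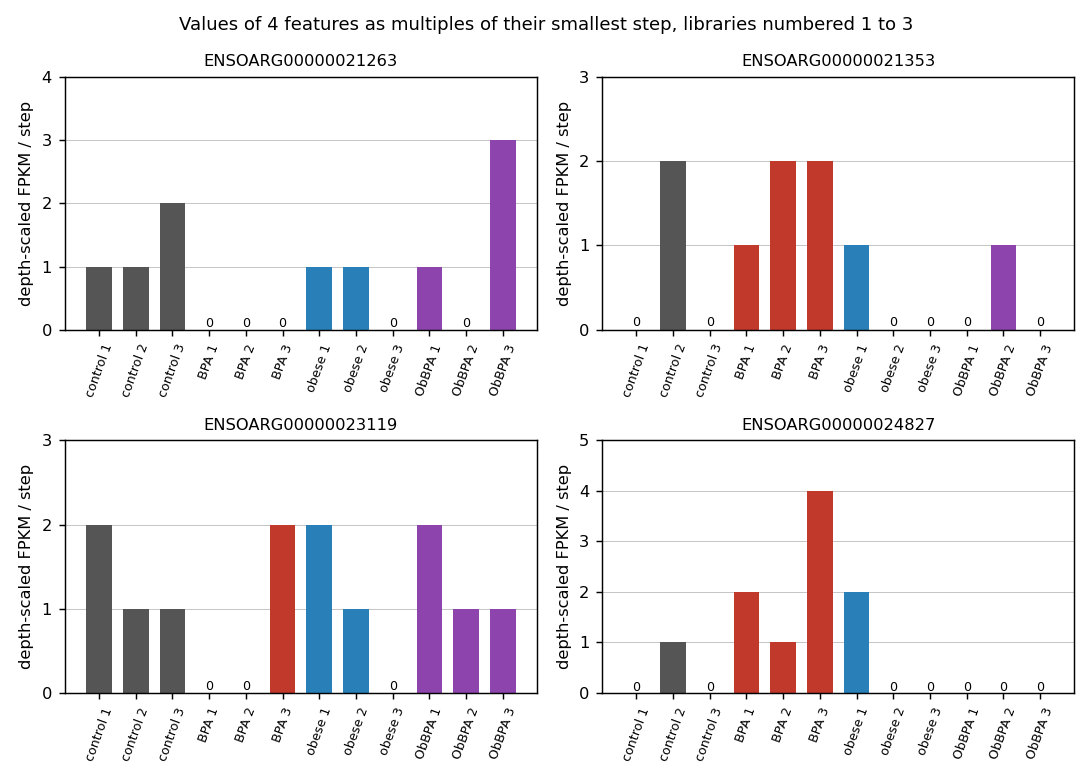
FPKM divided by relative depth, in units of the smallest step of each feature, in the 12 libraries numbered 1 to 3 (grey control, red BPA, blue obese, purple ObBPA, 0 written where a library is at 0) for the 4 features called after libraries were left out whose values fell on whole steps. Bars end on whole numbers, and the control and BPA libraries hold 0 to 4 steps.

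The 8 libraries did not divide by treatment. Correlations of log2(FPKM + 1) lay between 0.917 and 0.971, with a median of 0.951 within and 0.953 between groups, and no pair was identical. Control library 1 had a loading of 0.88 on the first component (30.9% of the variance), against -0.34 to 0.04 in the others, and was the highest of the 8 libraries for 40.0% and the lowest for 24.3% of features. Both libraries numbered 0 lay below the other 6 for 3357 features (26.5%) and above them for 505 (3.98%), 1 library in each group. Control and BPA hearts had 12584 ± 241 and 12644 ± 119 features with an FPKM of at least 1 (SD, n = 4, exact permutation test, adjusted p = 0.80). The most abundant feature took 35.6% ± 11.3 and 42.7% ± 7.21 of the summed FPKM (SD, n = 4, exact permutation test, adjusted p = 0.667). Shares of the 10 and of the 100 most abundant features and the median level gave adjusted p of 0.667, 0.286 and 0.80 by the same two-sided exact permutation test of 4 against 4, which allows no unadjusted p under 0.0286.

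**Figure D4:**
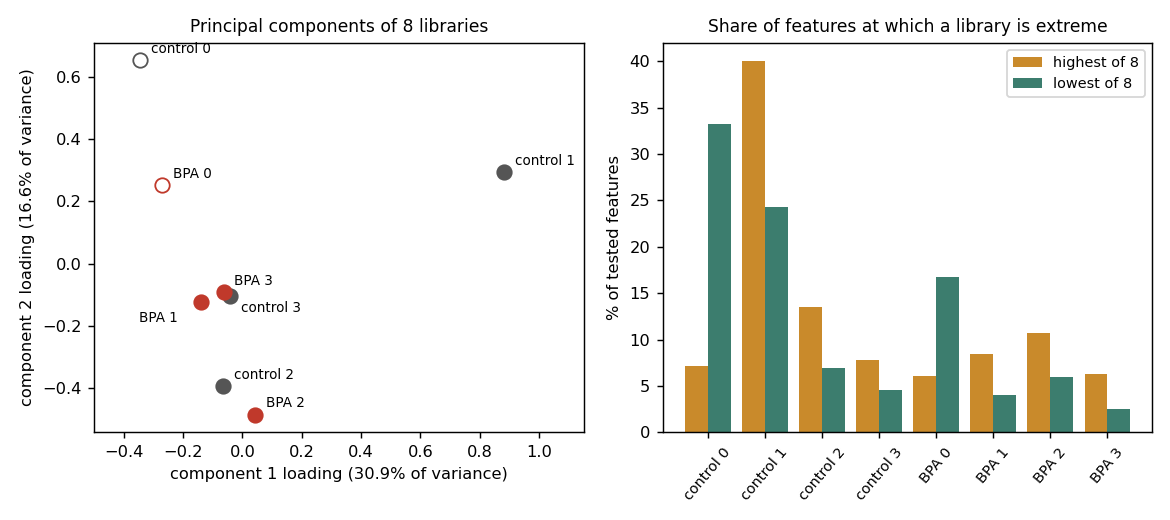
Left, loadings of the 8 libraries on the first components of log2(FPKM + 1), with open points for the libraries numbered 0. Right, the share of the 12689 tested features at which each library was the highest or the lowest of the 8; control library 1 reached 40.0% and 24.3%, and control library 0 was the lowest for 33.2%.

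Which way features leaned changed with the libraries used, and not only with those that stand apart. Without control library 1 the number at an unadjusted p under 0.05 by limma was 250, with 152 higher and 98 lower in BPA hearts. Without control library 0, which left a library numbered 0 in the BPA group only, it was 502, with 132 higher and 370 lower. Without BPA library 0, which left one in the control group only, it was 206, with 125 higher and 81 lower. Without both libraries numbered 0 it was 415, with 144 higher and 271 lower, and without these and control library 1 it was 840, or 6.62% of features, with 446 higher and 394 lower. The last fit rested on 2 control and 3 BPA libraries. Leaving out others moved the balance as far as control library 1 did: 163 were higher and 101 lower without control library 2, 64 and 113 without BPA library 3, and 52 and 74 without BPA library 1. Of the 184 features of the full comparison, 90 were also under an unadjusted p of 0.05 by limma without the libraries numbered 0 and control library 1. Whichever of the 8 libraries was left out, 53 stayed under it. Scaling turned the balance as well: the share of higher features was 51.1% as deposited, 41.0% after median-of-ratios scaling and 37.5% after quantile normalization.

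Abundant features showed the same dependence. Over the 1070 features of highest level (mean FPKM of 100 or more), the median log2 difference was -0.09 with all 8 libraries, 0.07 without control library 1, -0.13 without the libraries numbered 0 and 0.06 without both. For the 5193 features at a mean of 2 to 10 FPKM it was 0.02, 0.02, 0.02 and -0.01 in the same order. The 4 features described first kept their direction in each of these sets, which are parts of the libraries they were chosen on. All 184 features with an unadjusted p under 0.05 by limma kept theirs whichever library was left out. The kept direction is thus nothing particular to the 4. ENSOARG00000022451 had a log2 difference of 0.89 between the libraries numbered 0, 0.95 ± 0.166 (SE) among libraries 1 to 3, 0.83 ± 0.154 without control library 1 and 0.84 ± 0.127 without that library and those numbered 0. ENSOARG00000020608 had 0.48, 0.93 ± 0.177, 0.74 ± 0.155 and 0.83 ± 0.160, and ENSOARG00000012987 had -0.67, -0.56 ± 0.176, -0.51 ± 0.131 and -0.44 ± 0.154 in the same order. The adjusted p by limma in these fits was 0.747 to 1.00.

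**Figure D5:**
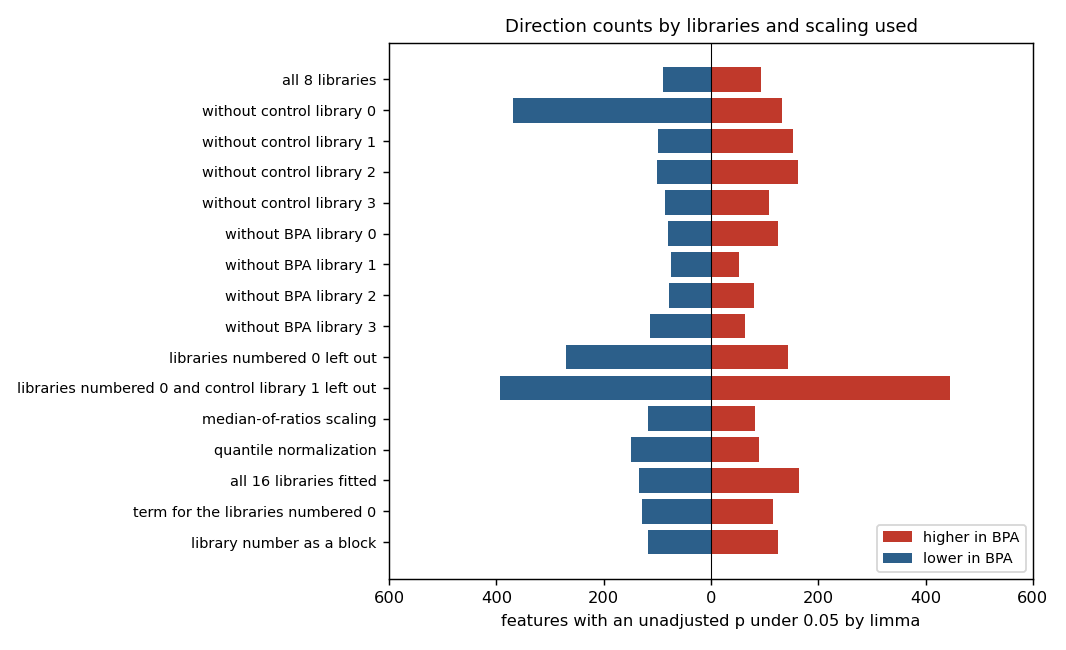
Number of features with an unadjusted p under 0.05 by limma that were higher (right, red) or lower (left, blue) in BPA than in control hearts, for all 8 libraries, with libraries left out, and under other scalings or fits. The bars are near even with all 8 libraries (94 and 90) and lean to lower values without control library 0 (132 and 370).

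The libraries numbered 0 and those numbered 1 to 3 could be set against each other as separate animals of the same groups. The difference between BPA library 0 and control library 0 had the same direction as the difference among libraries 1 to 3 for 43.9% of 12672 features. Across the tested features, which are not independent replicates, Pearson's r between these differences was -0.045 and Spearman's rho was -0.17.

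The SE of the log2 difference had a median of 0.175 over all features, 0.161 for those with a mean FPKM under 2 and 0.226 for those with 100 and over. For 93.3% of features the 95% interval stayed inside a 2-fold rise or fall of FPKM + 1, and for 88.9% of those with a mean of 100 and over. Without control library 1 the median SE was 0.141. Where levels are low, such an interval says little of FPKM itself, because of the added 1.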

How the data were processed

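Poly-A RNA of sheep myocardium was sequenced after TruSeq RNA library preparation, per the labels' protocols. The authors deposited 1 table of FPKM values, a column for each animal. The submitters' processing notes name build Oar_v3.1 and, as tools, Cuffdiff 2.1.1 and Cufflinks, Bowtie2 2.1.0 and TopHat2 2.0.9, and FastQC. How these were run, with which annotation, filters and scaling, is not given in the sources used here. Every column matched a sample title.

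The deposited FPKM values were fitted as log2(FPKM + 1) with limma 3.58.1 in R 4.3.3, control and BPA libraries only, with a trended prior variance (6 residual and 2.96 prior degrees of freedom). Tests were two-sided with Benjamini-Hochberg adjustment over the 12689 features that reached an FPKM of 1 in 4 or more of the 8. The obese and ObBPA libraries were fitted likewise. Replicates are separate animals per the labels.

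Relative depth came from the most frequent log2 ratio, in bins of 0.01, of values under 0.5 FPKM between each library and control library 3. Library summaries were compared by exact permutation tests in scipy 1.17.1 (Python 3.11.15, numpy 2.4.6, pandas 2.3.3), adjusted over the summaries, and figures were drawn with matplotlib 3.10.9.

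Features named by rule were, in each direction, the 2 of smallest p whose mean FPKM was 10 or more. The gene lists and cell type markers drawn up by symbol could not be applied without gene names. Members, lists and rules were chosen with earlier results of these data known. The switching features, the steps, the test of the BPA difference between diets and 1 alternative (features above 0 in all 8 libraries) were added after the data were seen. The fit was tested on simulated data. Alternatives changed the pseudocount, filter, scaling, variance model, weights, libraries and blocking.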

Additional observations from a re-analysis of the deposited data

Results flagged for a closer look

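In 26 groups of 4 libraries examined (the 4 features named by rule in each treatment group, and the library summaries in control and BPA), 3 held a library far from the other 3 by Dixon's criterion, which flags about 1 in 20 groups by chance. The median log2(FPKM + 1) over the tested features was 3.16 in control library 0, against 3.34 to 3.36 in the other control libraries, and 3.23 in BPA library 0, against 3.34 to 3.36 in the other BPA libraries. ENSOARG00000023370 had 14.9 FPKM in BPA library 3 and was listed at 0 in the other BPA libraries. With 3 values tied at 0, any other value above 0 meets the criterion, so this group does not count against the chance rate.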

How the results depend on the processing

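The number of features called by limma stayed at 0 under all alternatives except those that left libraries out: it was 1 without the libraries numbered 0, 1 without these and control library 1, and 0 to 3 when each library was left out in turn (2 without control library 2, 3 without BPA library 3). The number at an unadjusted p under 0.05 by limma was 184 of 12689 (1.45%). It was 439 of 20245 (2.17%) with no filter and 93 of 8631 (1.08%) with an FPKM of at least 5. With library weights it was 1348 (10.6%), above the 5% of evenly distributed p-values. The number was 298 with all 16 libraries fitted, 415 without the libraries numbered 0, and 840 without these and control library 1. Over the libraries left out in turn it ran from 126 to 502 (502 without control library 0). In the weighted fit control library 3 weighed 4.72 and control library 1 0.138. With the library number as a replicate block there were 0 calls and 242 features at an unadjusted p under 0.05 by limma. Same-numbered control and BPA libraries had correlations of deviations from the group mean of 0.14, -0.023, 0.0021 and 0.011, for numbers 0 to 3. Libraries of unlike number had -0.15 to 0.13. Whether the numbers pair animals cannot be told from these values. The 4 features named by rule kept their direction between BPA and control under all alternatives run, 23 each and 22 for ENSOARG00000023370, which has no value where features at 0 were removed. They were chosen on these libraries, and all of the 184 features kept their direction whichever library was left out. In overfed hearts, leaving out obese library 2 gave ENSOARG00000012987 a log2 difference of 0.016 (range -0.21 to 0.016), and leaving out obese library 1 or 2 gave ENSOARG00000023370 -0.14 (range -0.14 to 2.18). BPA minus control in the median log2(FPKM + 1) was 0.012, but -0.0044 without the libraries numbered 0 and -0.035 to 0.043 over libraries left out in turn; in features with an FPKM of at least 1 it was 60 more, or -23.7 to 137 over libraries left out. The causes were not tested. Depth is known only in relative terms, for the libraries numbered 1 to 3.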

Other observations

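Control hearts varied more than BPA hearts. The median SD of log2(FPKM + 1) over the tested features was 0.301 in control and 0.163 in BPA hearts, and the control SD was the higher one for 79.9% of features. Without control library 1 the control value was 0.193, and its SD was the higher one for 59.3% of features. The spread of the groups was not tested.

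Among the libraries with a known relative depth, the shallowest listed the most tested features at 0 and the deepest the fewest. Control library 1 (relative depth 0.539) listed 159, BPA library 2 (0.651) 135, BPA library 1 (0.80) 104, control library 2 (0.901) 90, control library 3 (the reference) 62 and BPA library 3 (1.75) 32.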
